A study of Caenorhabditis elegans with 9 samples.

Results

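The p38 MAP kinase immune pathway of *Caenorhabditis elegans* was followed through 6 genes, *tir-1*, *nsy-1*, *sek-1*, *pmk-1*, *atf-7* and *vhp-1*, which were picked by name from the 20541 genes with a value in each library. All 6 were found and all 6 passed the filter on low values. Whole worms were sequenced in 9 RNA libraries in 3 groups of 3. WT worms were raised at 20°C on the food bacterium *E. coli* OP50 and, as young adults, were either kept on OP50 or moved to the pathogen *P. aeruginosa* PA14, in both cases for 24 h and at 25°C. The third group was *egl-44(mt2247)* worms, which carry a mutation in the TEAD transcription factor gene *egl-44*, kept on OP50 under the same conditions. What the mutation does to the gene product is not stated in the sources used here. No *egl-44* worms on PA14 and no worms lacking a pathway gene were compared here.

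In this pathway the TIR-domain adaptor TIR-1 acts on the MAP kinase kinase kinase NSY-1, which phosphorylates the MAP kinase kinase SEK-1, which in turn phosphorylates the p38 kinase PMK-1. PMK-1 phosphorylates the bZIP transcription factor ATF-7, and intestinal cells then express secreted lectins, lysozymes and other defense genes. VHP-1 is a MAP kinase phosphatase that removes the activating phosphates and so acts against the cascade. Signal passes through this pathway by phosphorylation, which a measurement of RNA does not read.

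Each value is an FPKM, the number of fragments of a gene scaled by its transcript length and by the library's mapped total. Levels of different genes can be set side by side as far as the lengths used hold. The libraries held 13638251 to 17831389 reads, and the values of the 6 genes rest on 232 to 3908 reads each, which is counting error only. Differences are log2 fold changes of FPKM + 0.5 with their standard error (SE), and p-values were adjusted over all genes tested in the comparison. An adjusted p under 0.05 is called changed, and an unadjusted p under 0.05 with a fold change over 2 is the looser limit that the methods of the study name. The labels do not say whether replicates came from separate cultures, so the p-values measure the spread between these libraries, which may be partly technical. In RNA from whole worms, fewer cells of a type and less RNA per cell cannot be told apart.

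The libraries differed in ways that touch the results below. PA14 replicate 2 stood apart from its group, with Pearson correlations of 0.927 and 0.870 with the others, which reached 0.964 with each other. Its 6 intestinal markers summed to 488 FPKM against 1209 and 1243 FPKM in the other PA14 libraries and 1223 to 1497 FPKM on OP50, and none was at 0. Most of the gap in this sum came from *act-5*, at 123 FPKM against 711 and 624 FPKM in the other PA14 libraries. Also lower there were *pept-1* (14.5 against 68.8 and 57.0 FPKM), *vha-6* (126 against 209 and 175 FPKM) and *ifb-2* (165 against 221 and 316 FPKM). In contrast, *ges-1* was higher there (44.3 against 21.6 and 18.4 FPKM) and *elt-2*, at 15.5 FPKM, lay between the other PA14 libraries. The WT libraries on OP50 also differed among themselves, with a correlation of 0.937 between replicates 1 and 3. In replicates 1 to 3 the sum of 6 moulting genes was 283, 76.6 and 31.1 FPKM. The sum of 7 germline and oocyte markers was 1160, 1256 and 1725 FPKM. The part of this spread in the differences below was not tested. The *egl-44* libraries are labelled as adults, but *col-19*, a cuticle collagen of adults, was at 3.64 to 5.54 FPKM there against 1475 to 2221 FPKM in WT worms on OP50. All 7 germline and oocyte markers and all 5 sperm markers fell, with sums of 59.8 to 287 and 0.790 to 19.6 FPKM against 1160 to 1725 and 308 to 349 FPKM, and the sperm gene *spe-38* was at 0 in *egl-44* replicates 1 and 2. Of 6 moulting genes, 4 rose, and their sum was 417 to 794 FPKM against 31.1 to 283 FPKM. Of the somatic marker lists, the epidermal sum was lower, at 287 to 449 against 1561 to 2277 FPKM, through *col-19*, while the other 4 epidermal markers had higher means. The other somatic sums were higher, at 1729 to 1895 against 1223 to 1497 FPKM for intestine, 351 to 452 against 254 to 288 FPKM for neurons, 1724 to 1966 against 1173 to 1459 FPKM for body wall muscle and 172 to 270.0 against 68.2 to 131 FPKM for pharynx. *egl-44* itself was at 32.5, 37.8 and 28.2 FPKM in the mutant and at 16.1, 21.5 and 15.97 FPKM in WT worms, so its RNA level does not mark the mutant by a loss. The sources used here do not say whether the *egl-44* libraries were made together with the WT libraries, so genotype and batch cannot be told apart. The *col-19*, germline, sperm and moulting values set all mutant libraries apart from all WT libraries on OP50. Genotype therefore cannot be told apart from stage or germline content either.

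**Figure D1:**
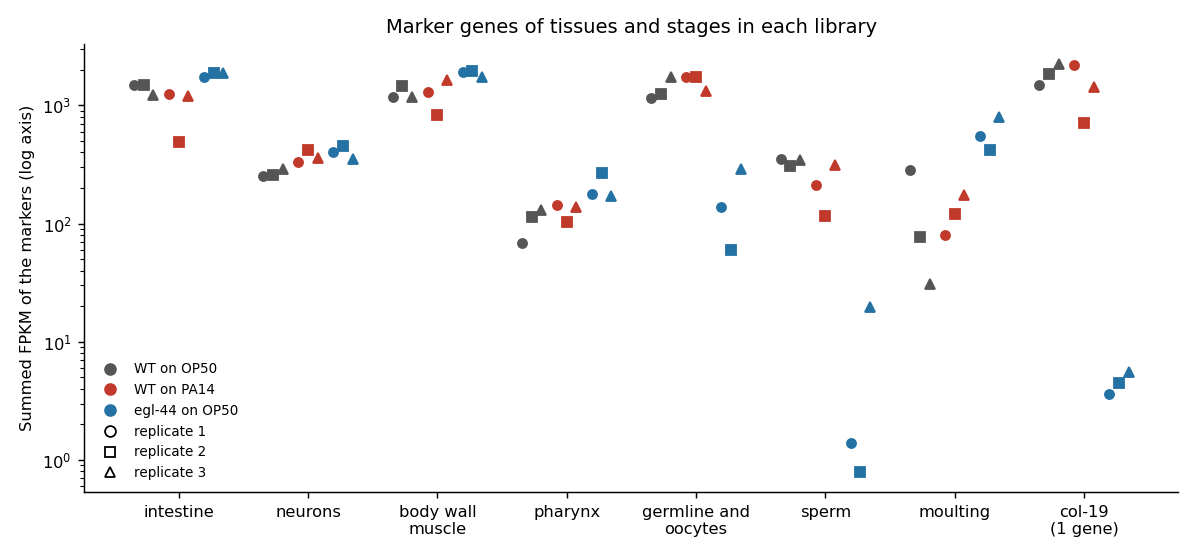
Summed FPKM of fixed marker genes (log axis) in each library, with the adult collagen gene *col-19* as a single gene on the right. Points are libraries, with color for the group and shape for the replicate. The germline, sperm and *col-19* values of the 3 *egl-44* libraries lie below those of all 6 WT libraries, and PA14 replicate 2 has the lowest intestinal sum, 488 FPKM.

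In WT worms on OP50, *atf-7* was the most abundant of the pathway RNAs and *pmk-1* the least. The mean levels (± SD, n = 3) were 81.6 ± 11.4 FPKM for *atf-7*, 25.2 ± 0.985 for *sek-1*, 19.9 ± 0.60 for *vhp-1*, 16.5 ± 1.75 for *nsy-1*, 11.6 ± 1.67 for *tir-1* and 9.11 ± 1.09 for *pmk-1*. No neighbors in this order overlapped between libraries. The order rests on the gene lengths behind the FPKM, and the place of *tir-1* above *pmk-1* depends on the *tir-1* length described below. On PA14 the order was *atf-7*, *vhp-1*, *sek-1*, *tir-1*, *nsy-1* and *pmk-1*, and the ranges of *sek-1* and *tir-1*, of *tir-1* and *nsy-1*, and of *nsy-1* and *pmk-1* overlapped. In *egl-44* worms it was *atf-7*, *vhp-1*, *sek-1*, *nsy-1*, *pmk-1* and *tir-1*, with overlaps between *vhp-1* and *sek-1*, between *nsy-1* and *pmk-1* and between *pmk-1* and *tir-1*. The phosphatase gene thus stood above *sek-1* in the mean of both other groups, and without overlap only on PA14.

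The 6 genes lie on 4 chromosomes of the WBcel235 build. *tir-1* lies at III:3869590-3901642 on the minus strand and has 13 annotated transcripts. *nsy-1* lies at II:5022757-5029999, plus strand, and *vhp-1* at II:5323276-5340829, plus strand, with 8 transcripts. *sek-1* lies at X:7816734-7821036, plus strand, and *atf-7* at III:4491627-4499045, minus strand, with 8 transcripts. *pmk-1* lies at IV:8148794-8151266, plus strand, directly after *pmk-3* and *pmk-2*, the other p38 kinase genes, which are transcribed with it as one operon. The deposited values give *tir-1* a length of 3044 bases, while its annotated exons cover 6061 bases, so its FPKM depends on which transcripts the length was taken from, in the same way in every library. Exons of *nsy-1* share 56 bases with *wdr-83* and those of *sek-1* share 70 bases with *R03G5.6*, both on the opposite strand, and whether reads were counted by strand is not given.

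Exposure to PA14 was the first comparison, and it asks which genes respond to the pathogen after 24 h. Among the 6 genes the top and the brake of the cascade differed most. *vhp-1* rose to 2.32-fold its level on OP50 (95% interval 1.77 to 3.03), and *tir-1* was at 2.28-fold (1.67 to 3.10), just short of the adjusted limit. The kinase genes between them, *nsy-1*, *sek-1* and *pmk-1*, and the transcription factor gene *atf-7* were 1.31-fold to 1.68-fold higher, and none passed that limit.

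**Figure D2:**
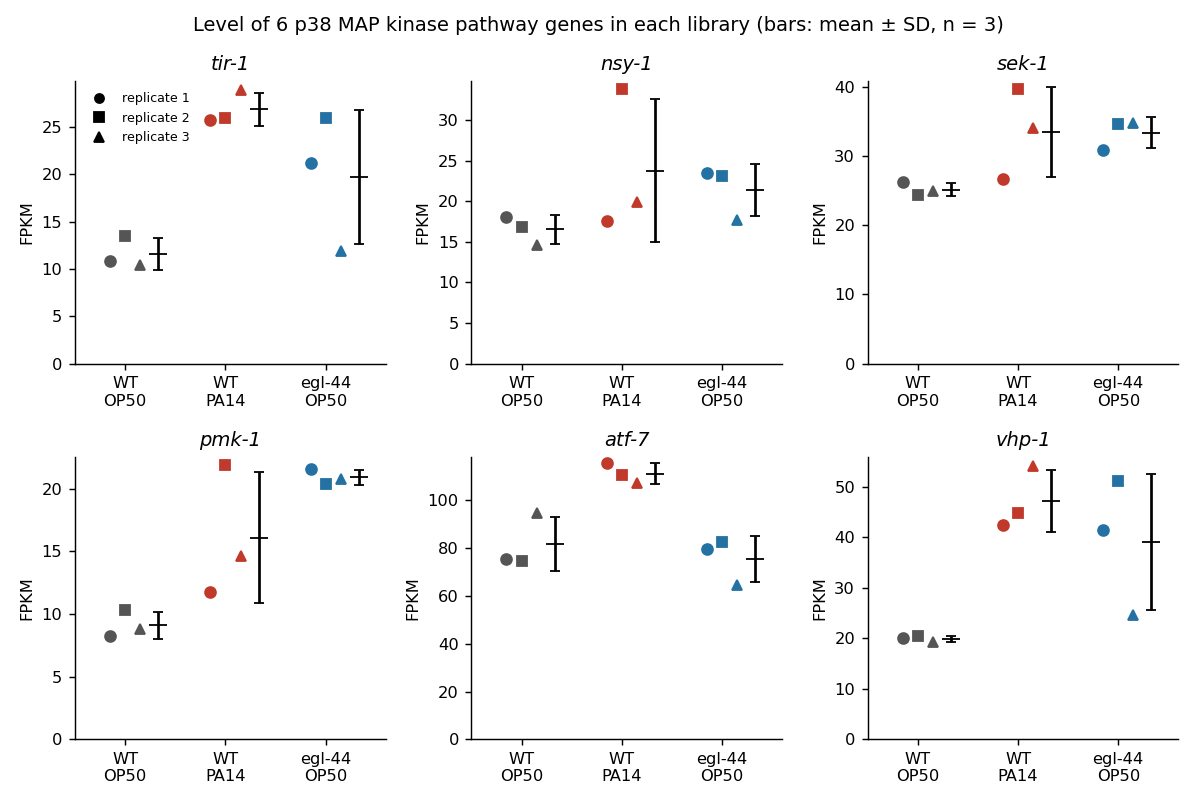
FPKM of the 6 pathway genes in each of 9 libraries, from 0. Points are libraries, with shape for the replicate, and the black marks are the mean ± SD of 3 libraries. The WT libraries on PA14 lie above all WT libraries on OP50 for every gene but *nsy-1*, and *pmk-1* is at 20.3 to 21.6 FPKM in the *egl-44* libraries.

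*vhp-1* was at 20.0, 20.5 and 19.3 FPKM in OP50 replicates 1 to 3 and at 42.4, 44.9 and 54.2 FPKM in PA14 replicates 1 to 3. Every PA14 library had more than 2 times the *vhp-1* level of any OP50 library. In log2 terms the difference was 1.21 (SE 0.16, limma adjusted p = 0.0373). The call did not hold when any single library was left out, with adjusted p-values from 0.0510 to 0.191, although the log2 fold change stayed between 1.11 and 1.29. It was also lost under median-of-ratios scaling (0.96, adjusted p = 0.0785) and quantile normalization (0.9996, adjusted p = 0.0821).

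*tir-1* was at 10.8, 13.5 and 10.4 FPKM on OP50 and at 25.7, 25.9 and 28.9 FPKM on PA14. The groups were far apart and the PA14 libraries lay close together. Its log2 fold change was 1.19 (SE 0.19, limma adjusted p = 0.0516), and the gene passed the looser limit. It was called with a pseudocount of 0.1 FPKM (adjusted p = 0.0488), with a filter at 5 FPKM (0.0399) and by limma voom on the recovered reads (0.0476), but in none of the other 13 alternatives. With a library left out the adjusted p was 0.0738 to 0.267. Under median-of-ratios scaling (0.94, adjusted p = 0.111) and quantile normalization (0.97, adjusted p = 0.0898) *tir-1* no longer passed the looser limit either.

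*nsy-1*, the first kinase of the cascade, was at 18.1, 16.9 and 14.6 FPKM on OP50 and at 17.6, 33.8 and 19.9 FPKM on PA14. PA14 replicate 1 lay within the OP50 range, and PA14 replicate 2 was the highest of the 9 libraries. *nsy-1* thus had a log2 fold change of 0.46 (SE 0.28, limma adjusted p = 0.328), and without PA14 replicate 2 it was 0.18. *sek-1*, the second kinase, was at 26.3, 24.4 and 24.9 FPKM on OP50 and at 26.6, 39.7 and 34.0 FPKM on PA14. PA14 replicate 1 exceeded the highest OP50 library only barely. Its log2 fold change was 0.39 (SE 0.19, limma adjusted p = 0.282).

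*pmk-1*, the p38 kinase itself, was at 8.23, 10.3 and 8.77 FPKM on OP50 and at 11.7, 21.9 and 14.7 FPKM on PA14. Again PA14 replicate 2 was highest, and the PA14 libraries spread over a wider range than the distance between the group means. This gave a log2 fold change of 0.75 (SE 0.27, limma adjusted p = 0.225), and 0.51 without PA14 replicate 2. In that library *nsy-1*, *sek-1* and *pmk-1* were all at their highest PA14 value, while its intestinal marker sum was the lowest of the series. Its part in these differences was measured by leaving it out, and no other property of the library was tested.

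*atf-7*, the transcription factor downstream of PMK-1, was at 75.5, 74.5 and 94.7 FPKM on OP50 and at 116, 110 and 107 FPKM on PA14. The groups did not overlap, and OP50 replicate 3 was closest to the PA14 libraries. *atf-7* had a log2 fold change of 0.45 (SE 0.14, limma adjusted p = 0.202), with a 95% interval of 0.11 to 0.79.

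**Figure D3:**
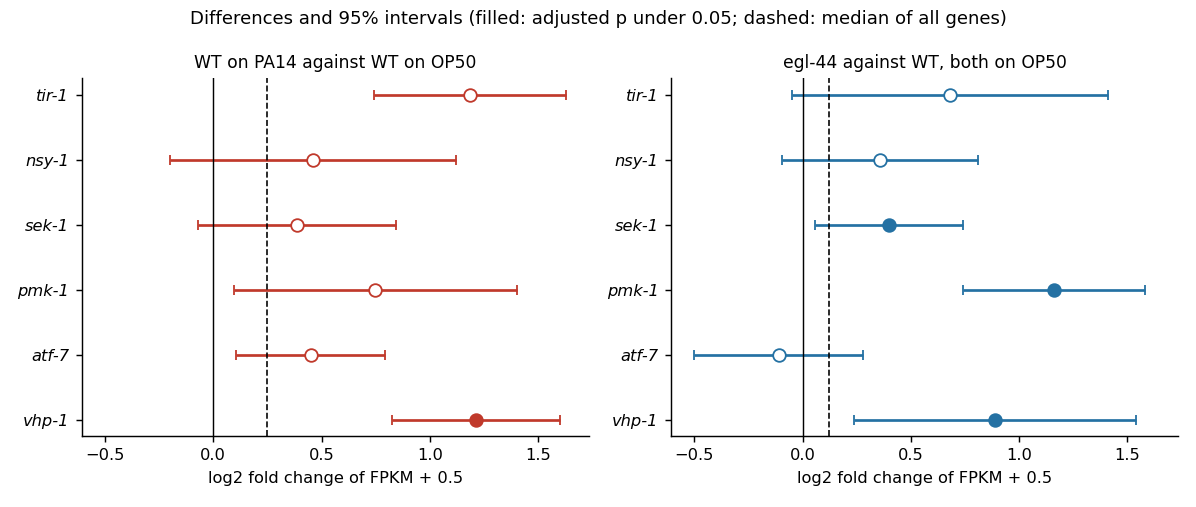
Log2 fold change of FPKM + 0.5 with its 95% interval for the 6 pathway genes, on PA14 against OP50 in WT worms (left) and in *egl-44* against WT worms on OP50 (right). Filled circles have an adjusted p under 0.05, and the dashed line is the median of all genes, 0.25 on the left and 0.12 on the right. On the left *tir-1* and *vhp-1* have the largest values, and on the right *pmk-1* does.

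Read against all 15760 genes tested on PA14, 1 of the 6 genes was called higher, as were 0.730% of all genes, and none lower, as against 0.127%. At the looser limit 2 of 6 were called, *tir-1* and *vhp-1*, against a background of 6.99%, and neither under median-of-ratios scaling or quantile normalization. By the unadjusted p alone 4 of 6 were called, with *pmk-1* and *atf-7* added, against 15.7%. In 5 of the 6 genes every PA14 library exceeded every OP50 library, which was so for 23.7% of all genes. An exact two-sided permutation test gave p = 0.1 for each of these 5, the smallest value that 3 against 3 libraries allow. The 6 genes had a median log2 fold change of 0.60, beside 0.25 over all genes, of which 67.5% were higher on PA14. Median-of-ratios scaling moved the median of all genes from 0.25 to 0.01, and that of the 6 genes to 0.36. All 6 kept their direction there and in every other alternative. Relative to the median of all genes, *tir-1* was 0.94 and *vhp-1* 0.97 higher on the log2 scale, *pmk-1* 0.50, and *nsy-1*, *atf-7* and *sek-1* 0.21, 0.20 and 0.14.

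The intestinal genes that PMK-1 is known to control differed far more than the pathway genes. The list had 11 such genes, 9 of which were matched and tested. It was written with earlier results of these data known and the study names 3 of its genes from these libraries, *irg-5*, *clec-67* and *clec-85*, so its direction is not independent evidence. The study assigns *clec-67* and *clec-85* to EGL-44 and its coactivator YAP-1, and describes the genes of that complex as not depending on PMK-1 and ATF-7. Of the 9, 7 rose on PA14 and none fell, beside 0.730% and 0.127% of all genes. The looser limit for higher genes was passed by 8, beside 6.99% of all genes. The median log2 fold change was 2.93.

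The largest difference was in *irg-5*, a CUB-like gene induced by infection. It was at 4.76, 5.89 and 12.3 FPKM on OP50 and at 1390, 329 and 1251 FPKM on PA14, and PA14 replicate 2 had the least of the infected libraries. The log2 fold change was 6.78 (SE 0.61, limma adjusted p = 0.0106). *sysm-1*, another secreted-protein gene of the pathway (T24B8.5), was at 1.75, 6.47 and 16.5 FPKM on OP50 and at 385, 95.2 and 350 FPKM on PA14. The groups did not overlap, but the OP50 libraries spread widely, and its log2 fold change of 5.19 (SE 0.83) missed the limit (limma adjusted p = 0.0556).

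The lysozyme gene *lys-2* was at 130, 106 and 89.4 FPKM on OP50 and at 892, 1182 and 1169 FPKM on PA14, a log2 fold change of 3.31 (SE 0.19, limma adjusted p = 0.00366). This was the firmest of the list, called in 15 of 16 alternatives and whichever library was left out. The C-type lectin genes *clec-85* and *clec-67* rose by log2 fold changes of 2.93 (SE 0.29) and 2.70 (SE 0.19). *clec-67* was at 15.9, 15.1 and 14.1 FPKM on OP50 and at 95.1, 85.1 and 125 FPKM on PA14. The mucin-like gene *mul-1* rose by 3.03 (SE 0.41), *K08D8.5* by 2.49 (SE 0.32) and *C17H12.8* by 1.74 (SE 0.23). The ATPase gene *catp-3* was at 26.1, 10.4 and 31.6 FPKM on OP50 and at 10.8, 4.05 and 41.4 FPKM on PA14, and these ranges overlapped. Leaving out PA14 replicate 2 left 4 of the 9 called, and median-of-ratios scaling and quantile normalization also 4 each. Among the fits that left out another library, 1 was called without OP50 replicate 2, 2 without OP50 replicate 1, 3 without PA14 replicate 1 or 3 and 6 without OP50 replicate 3. At the looser limit for higher genes 8 of the 9 passed in each of these alternatives.

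**Figure D4:**
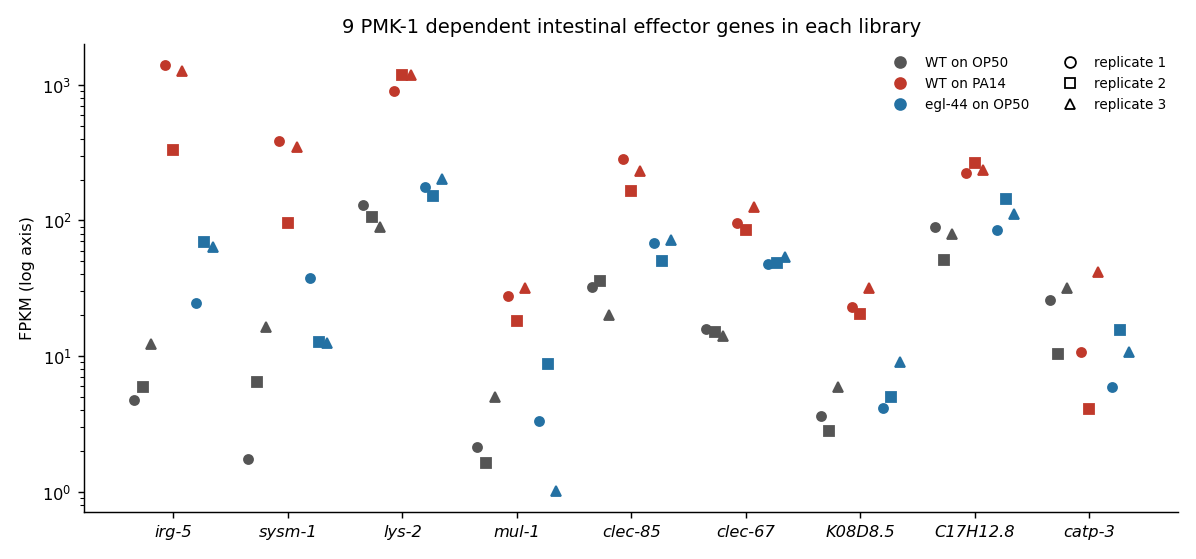
FPKM on a log axis of 9 intestinal effector genes known to depend on PMK-1, in each library. Points are libraries, with color for the group and shape for the replicate. For 8 of the genes all 3 PA14 libraries lie above all OP50 libraries, *catp-3* being the exception, and *irg-5* reaches 1390 FPKM.

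Among the other kinases, the paralogs and parallel MAP kinases, 12 of 12 genes had higher means on PA14, as had 67.5% of all genes. Under median-of-ratios scaling *pmk-3* (-0.06), *jkk-1* (-0.003), *kgb-1* (-0.12) and *mpk-1* (-0.08) were lower instead. Of the 12, 1 was called higher, as were 0.730% of all genes. This was *dlk-1*, the MAP kinase kinase kinase that acts upstream of PMK-3 in neurons. It was at 17.2, 19.2 and 15.3 FPKM on OP50 and at 39.5, 49.3 and 44.6 FPKM on PA14, a log2 fold change of 1.34 (SE 0.17, limma adjusted p = 0.0341). The call was lost whichever library was left out, and without PA14 replicate 2 the adjusted p was 0.0518. The sum of 6 neuronal markers was also higher, at 333 to 417 FPKM on PA14 against 254 to 288 FPKM on OP50, and its part in the *dlk-1* difference was not tested.

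Upstream of TIR-1, 9 of 11 genes had higher means on PA14, as had 67.5% of all genes, and none passed the adjusted limit. Under median-of-ratios scaling *tpa-1* (-0.002) and *unc-43* (-0.16) were lower instead. Of 12 transcription factors beside ATF-7, all had higher means, though *elt-3* was at -0.20 under median-of-ratios scaling. None passed the adjusted limit. *cebp-1* and *pqm-1* passed the looser one for higher genes, as did 6.99% of all genes, with log2 fold changes of 1.05 (SE 0.18) and 1.0 (SE 0.20). Under median-of-ratios scaling (0.80 and 0.75) and quantile normalization (0.85 and 0.81) neither did. *cebp-1* fell short without PA14 replicate 3 (0.95), and *pqm-1* without OP50 replicate 1 (0.83) or PA14 replicate 2 (0.93) or with a pseudocount of 1 FPKM (0.99). The epidermal peptide genes *nlp-29*, *nlp-31* and *cnc-2*, which the same kinases control in the skin, had lower means and none passed either limit. Among the alternatives, *cnc-2* passed the looser limit for lower genes under median-of-ratios scaling (-1.19) and quantile normalization (-1.12). It also passed without OP50 replicate 1 or PA14 replicate 3. *nlp-29* was at 156, 305 and 133 FPKM on OP50 and at 113, 78.6 and 214 FPKM on PA14. Of the genes that depend on SKN-1, a further PMK-1 substrate, neither passed the adjusted limit. The glutathione synthesis gene *gcs-1* was at 0.63 (SE 0.18) on the log2 scale, and the glutathione transferase gene *gst-4* at -2.08 (SE 0.77), past the looser limit for lower genes as were 1.78% of all genes, with overlapping groups. Without PA14 replicate 2, where *gst-4* was at 2.46 FPKM against 10.8 and 17.7 FPKM in the other PA14 libraries, it was at -1.32 and no longer passed, and it did not pass without OP50 replicate 1 (-1.59), OP50 replicate 2 (-2.04) or PA14 replicate 1 (-2.29) either.

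Genes of the bZIP factor ZIP-2, a defense branch that does not need PMK-1, were also higher. *irg-1* was at 6.36, 8.42 and 5.31 FPKM on OP50 and at 58.0, 255 and 176 FPKM on PA14, a log2 fold change of 4.28 (SE 0.53, limma adjusted p = 0.0287). Here PA14 replicate 2 had the highest value, unlike in *irg-5* and *sysm-1*, where it had the lowest of the PA14 libraries. *irg-2* rose by 3.36 (SE 0.41). With a library left out *irg-1* was called only without PA14 replicate 1 or 2, and *irg-2* only without PA14 replicate 1, and limma voom called neither. *irg-3*, at 2.41 (SE 0.75), passed only the looser limit. It was at 545, 65.3 and 94.1 FPKM on PA14 and at 21.5, 28.6 and 35.2 FPKM on OP50, and without PA14 replicate 1 its log2 fold change was 1.48. Over all 52 matched genes of the 7 lists, 45 were higher on PA14, as were 67.5% of all genes. The median log2 fold change of the 52 was 0.57. Of them, 10 were called higher and none lower, beside 0.730% and 0.127% of all genes. These 10 came to 1 to 6 with a library left out.

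The mutation in *egl-44* was the second comparison. It sets mutant beside WT worms that were not exposed to the pathogen. The mutation cannot be told apart here from the batch or from the differences in stage and germline markers described above. The comparison uses the same 3 OP50 libraries of WT worms as the first. Of the 6 pathway genes, *pmk-1*, *vhp-1* and *sek-1* rose in *egl-44* worms. *pmk-1* stood out with 2.24-fold its WT level (95% interval 1.67 to 2.99) and the smallest spread between the mutant libraries. *tir-1* and *nsy-1* had higher means and *atf-7* a slightly lower one, and none of these passed the adjusted limit.

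*pmk-1* was at 21.6, 20.3 and 20.8 FPKM in *egl-44* replicates 1 to 3, beside 8.23, 10.3 and 8.77 FPKM in WT worms. The lowest mutant library had nearly 2 times the level of the highest WT library. The log2 fold change was 1.16 (SE 0.18, limma adjusted p = 0.00236). The gene was called in all 16 alternatives, with log2 fold changes from 1.04 to 1.46 and adjusted p-values from 0.000699 to 0.0165.

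*vhp-1* was at 41.4, 51.0 and 24.6 FPKM in *egl-44* worms, beside 19.3 to 20.5 FPKM in WT worms. Replicate 3 was close to the WT libraries and the other mutant libraries were far above them. The log2 fold change was 0.89 (SE 0.27, limma adjusted p = 0.0291). The call was lost without any 1 of the WT libraries or *egl-44* replicates 1 or 2, at adjusted p-values of 0.0668 to 0.0944, and without *egl-44* replicate 3 the log2 fold change was 1.19 (adjusted p = 0.00248).

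*tir-1* was at 21.2, 25.9 and 11.96 FPKM in *egl-44* worms. Replicate 3 was again the lowest mutant library, and for *tir-1* it lay within the WT range of 10.4 to 13.5 FPKM. The log2 fold change was 0.68 (SE 0.31, limma adjusted p = 0.0928), and without *egl-44* replicate 3 it was 0.998 (adjusted p = 0.00918). That library also had the most germline signal of the mutant libraries, with a marker sum of 287 FPKM against 138 and 59.8 FPKM, and the highest moulting sum, 794 FPKM. The moulting gap lay mainly in *bli-1*, at 216 FPKM there against 2.84 and 0.714 FPKM, while *mlt-11*, *nas-37* and *ptr-4* were highest in *egl-44* replicate 1. The part of the germline or moulting signal in the *tir-1* and *vhp-1* values was not tested.

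*sek-1* was at 30.8, 34.6 and 34.8 FPKM in *egl-44* worms, all above the WT range of 24.4 to 26.3 FPKM. The log2 fold change was 0.40 (SE 0.14, limma adjusted p = 0.0480), a call that was lost in 11 of 16 alternatives, among them each one that left out a library. *nsy-1* was at 23.4, 23.1 and 17.7 FPKM, with replicate 3 inside the WT range, and its log2 fold change was 0.36 (SE 0.19, limma adjusted p = 0.141). It was called without that replicate (0.49, adjusted p = 0.0490). *atf-7* was at 79.6, 82.4 and 64.5 FPKM, around the WT values of 75.5, 74.5 and 94.7 FPKM. Its log2 fold change was -0.11 (SE 0.16, limma adjusted p = 0.576), with a 95% interval of -0.50 to 0.28.

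Over 15488 genes tested in this comparison, 3 of the 6 genes were called higher, against 26.3% of all genes, and none lower, against 31.5%. At the looser limit 1 of 6 was called, *pmk-1*, against 17.9% of all genes. By the unadjusted p 3 of 6 were higher, against 31.1%, and 3 of 6 had every mutant library above every WT library, against 34.1%. Calls were thus common in both directions, and a call here sets a gene apart less than on PA14. Relative to the median of all genes, 0.12, *pmk-1* was 1.04 higher on the log2 scale and *vhp-1* 0.77. A *pmk-1* difference of this size or larger was found in 15.1% of all genes. The median of the 6 genes was 0.54. The fall of germline and sperm genes and the low *col-19* described above go with this comparison in all 3 mutant libraries, and their part in the *pmk-1* difference was not tested. Beside the 1.16 of *pmk-1*, the median log2 fold change was 0.43 over the intestinal, 0.86 over the neuronal, 0.68 over the body wall muscle and 1.32 over the pharyngeal markers.

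The neighbors of *pmk-1* in the operon rose with it in *egl-44* worms. *pmk-2* was at 8.58, 10.9 and 7.40 FPKM beside 3.01, 3.84 and 3.41 FPKM in WT worms, a log2 fold change of 1.26 (SE 0.24, limma adjusted p = 0.00545). *pmk-3* was at 20.4, 22.7 and 20.2 FPKM beside 11.5, 11.5 and 9.70 FPKM, a log2 fold change of 0.93 (SE 0.17, limma adjusted p = 0.00500). Both were called in all 16 alternatives. On PA14 the genes of the operon did not share one value, with log2 fold changes of 0.75 (SE 0.27) for *pmk-1*, 0.71 (SE 0.26) for *pmk-2* and 0.18 (SE 0.20) for *pmk-3*, of which none passed the adjusted limit and the last changed sign under median-of-ratios scaling (-0.06) and quantile normalization (-0.04). The ratio of *pmk-3* to *pmk-1* was 1.11 to 1.39 on OP50, 0.588 to 0.936 on PA14 and 0.945 to 1.12 in *egl-44* worms. Hence every PA14 library had less *pmk-3* per *pmk-1* than every other library, and this ratio was not tested.

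*tir-1* and *vhp-1*, at the start of the cascade and at its shut-off, followed each other through the libraries. Among 11045 genes averaging 5 FPKM or more over the series, each was the gene most like the other, with a Pearson r of 0.976 over the log2 values of 9 libraries. The libraries fall into groups that differ in both genes, and 1 r over them describes these libraries only. The ratio of *vhp-1* to *tir-1* was 1.52 to 1.86 on OP50, 1.65 to 1.87 on PA14 and 1.95 to 2.06 in *egl-44* worms. In *egl-44* replicate 3, where both were near the WT level, the ratio was 2.06, beside 1.95 and 1.97 in the other mutant libraries.

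**Figure D5:**
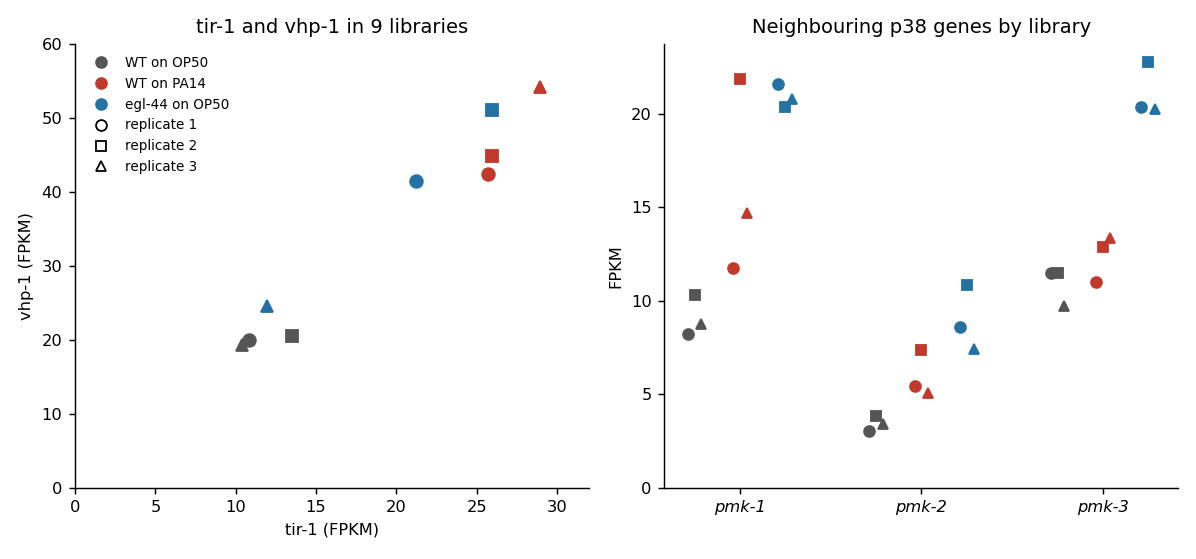
Left, FPKM of *vhp-1* against FPKM of *tir-1* in 9 libraries. Right, FPKM of the neighboring p38 genes *pmk-1*, *pmk-2* and *pmk-3* in each library, from 0. Color marks the group and shape the replicate. The ratio of *vhp-1* to *tir-1* runs from 1.52 to 2.06, and *egl-44* replicate 3 lies with the WT libraries on OP50 in the left plot but with its own group for *pmk-1* and *pmk-3* in the right plot.

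The genes most like each remaining member, by the same measure over 9 libraries, were *pha-1* (r = 0.996) and *bed-2* (0.992) for *pmk-1*, *mnp-1* (0.980) and *F13E9.11* (0.962) for *nsy-1*, *catp-7* (0.965) and *unc-5* (0.959) for *sek-1*, and *ark-1* (0.956) and *drap-1* (0.954) for *atf-7*. After each other, *tir-1* was most like *bre-4* (0.953) and *vhp-1* most like *dhp-1* (0.964). *pha-1* was at 3.26, 3.97 and 3.52 FPKM on OP50, at 5.25, 11.3 and 6.33 FPKM on PA14 and at 10.7, 10.9 and 10.2 FPKM in *egl-44* worms, and so had its highest values in PA14 replicate 2 and the mutant libraries, as *pmk-1* did. In PA14 replicate 2, the library with the most *nsy-1*, *mnp-1* and *F13E9.11* were at 20.5 and 30.03 FPKM, against at most 4.47 and 5.63 FPKM in the other PA14 libraries.

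Of the other kinases, 9 of 12 rose and 2 fell in *egl-44* worms, where 26.3% of all genes rose and 31.5% fell. The risers were *pmk-2*, *pmk-3*, *dlk-1*, *mlk-1*, *mkk-4*, *jkk-1*, *jnk-1*, *kgb-1* and *sek-3*, so they came from the p38 and the JNK branches. *jnk-1*, a JNK kinase gene expressed in neurons, was at 6.50, 8.49 and 4.97 FPKM beside 2.26, 2.21 and 1.85 FPKM, a log2 fold change of 1.43 (SE 0.27, limma adjusted p = 0.00515). *dlk-1* was at 43.7, 40.4 and 35.3 FPKM, a log2 fold change of 1.2 (SE 0.17, limma adjusted p = 0.00185). The JNK-like kinase gene *kgb-1*, whose product VHP-1 also dephosphorylates, rose by 0.87 (SE 0.21). The ERK gene *mpk-1* and *mom-4*, a MAP kinase kinase kinase gene, fell by 0.65 and 0.67 on the log2 scale, and *mom-4* was called in 8 of 16 alternatives, with a library left out only without WT replicate 1, and not under quantile normalization (-0.34). *mpk-1* was called in 14 of 16. The neuronal marker sums above were higher in the same libraries as *jnk-1* and *dlk-1*, and the germline sums lower where *mpk-1*, which acts in the germline, was lower. Neither part was tested. Without WT replicate 1 or 2 or *egl-44* replicate 1 or 2 the 9 risers came to 5.

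Beside 26.3% higher and 31.5% lower over all genes, 5 of the 11 genes upstream of TIR-1 rose in *egl-44* worms and none fell. These were the phospholipase C gene *egl-8* (0.68, SE 0.17), the protein kinase C gene *tpa-1* (0.90, SE 0.26), the G protein-coupled receptor genes *fshr-1* (0.66, SE 0.23) and *dcar-1* (1.08, SE 0.20), and *unc-43* (0.85, SE 0.18), which encodes CaMKII. The count was 2 without *egl-44* replicate 1 and 3 without WT replicate 1 or 3 or *egl-44* replicate 2. *dcar-1* was at 57.3, 49.2 and 40.9 FPKM beside 25.2, 24.9 and 18.7 FPKM in WT worms. Of the 12 transcription factors, the intestinal GATA factor gene *elt-2* (1.27, SE 0.26), *hlh-30*, the TFEB gene (1.12, SE 0.25), the epidermal GATA factor gene *elt-3* (0.82, SE 0.18) and *pqm-1* (0.80, SE 0.29) rose, and none fell, beside 26.3% higher and 31.5% lower over all genes. The first 3 were called in all 16 alternatives. *pqm-1* was called in 5 of them, was lost under median-of-ratios scaling (adjusted p = 0.0800) and held with a library left out only without *egl-44* replicate 3.

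The intestinal effectors rose in part. Of 9 tested, 4 rose and none fell in *egl-44* worms, with a median log2 fold change of 0.71, where 26.3% of all genes rose and 31.5% fell. *irg-5* was at 24.6, 69.2 and 63.4 FPKM beside 4.76, 5.89 and 12.3 FPKM in WT worms, a log2 fold change of 2.67 (SE 0.49, limma adjusted p = 0.00474). *clec-67* was at 47.9, 48.2 and 53.6 FPKM, a log2 fold change of 1.70 (SE 0.15, limma adjusted p = 0.000331), *clec-85* rose by 1.12 (SE 0.26) and *lys-2* by 0.71 (SE 0.18). The other 5 did not pass, among them *sysm-1* at 37.5, 12.7 and 12.6 FPKM and *mul-1* at 3.33, 8.72 and 1.02 FPKM. The mutant libraries of *irg-5*, *lys-2*, *clec-67* and *clec-85* all lay below the lowest PA14 library and above the highest OP50 library. The intestinal marker sum was also higher in them than on OP50, and its part in these differences was not tested. For *clec-67* and *clec-85* the study reports, from qRT-PCR, no effect of the *egl-44* mutation on OP50, where both rose in these libraries. The reason for this gap was not tested.

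Of the epidermal peptide genes, *cnc-2* fell by 2.0 on the log2 scale (SE 0.51, limma adjusted p = 0.0156), past the looser limit for lower genes as were 23.4% of all genes, and *nlp-31* passed the looser limit for higher genes (1.23, SE 0.46), but not without WT replicate 3 or *egl-44* replicate 1 or 3. *cnc-2* was at 12.2, 3.89 and 6.99 FPKM in *egl-44* worms and at 18.1, 54.4 and 26.0 FPKM in WT worms. Neither SKN-1 target passed a limit. Of the ZIP-2 genes *irg-1* rose by 1.26 (SE 0.28, limma adjusted p = 0.00974). Over the 52 matched genes of the 7 lists, 23 were called higher and 3 lower, beside 26.3% and 31.5% of all genes. Without *egl-44* replicate 1 the calls came to 14 higher and 1 lower. The median log2 fold change of the 52 was 0.64, beside 0.12 over all genes.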

How the data were processed

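RNA of whole worms was sequenced in 9 libraries, 3 per group. The authors deposited 1 table per library with an FPKM value for each of 20541 genes, scaled by gene length and mapped total. The submitters' processing notes name Bowtie2 2.2.3, TopHat2 2.0.12, HTSeq 0.6.1, DESeq 1.18.0 and the WBcel235 build, while the annotation, the strand setting and the handling of shared reads are not stated there. Because FPKM is a share of each library, a large change in one tissue moves the values of all others.

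Whole reads were recovered from the steps between FPKM values for all 19711 genes above 0 (within 0.01 of a whole number), giving the library totals. For each comparison a linear model of log2(FPKM + 0.5) over its 6 libraries was fitted in R 4.3.3 by limma 3.58.1, using eBayes with an intensity trend. Genes averaging under 0.5 FPKM were left out, and p-values were Benjamini-Hochberg adjusted over all genes tested. Intervals are at 95%. The fit was tested on simulated data. Permutation tests of single genes are exact and two-sided. Python 3.11.15, pandas 2.3.3, scipy 1.17.1 and matplotlib 3.10.9 were used.

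The members and the lists were chosen with earlier results of these data known. The text names the 6 members, the 2 genes most like each, every list gene past the adjusted limit in either comparison, and in each list the genes with the largest positive and negative change at the looser limit. Other list genes named, such as *sysm-1*, *catp-3*, *nlp-29*, *gcs-1* and *irg-3*, and the marker and *egl-44* genes, were added with their values in view. Of 54 list genes 52 were matched. F08G3.6 and C32H4.2 were not matched under these names, so the list counts leave them out, whether or not they have values under another name. Coordinates, transcripts and overlaps come from the Ensembl annotation of WBcel235.

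The alternatives were pseudocounts of 0.1 and 1 FPKM, no filter and a filter at 5 FPKM, median-of-ratios scaling, quantile normalization, 1 fit of all 9 libraries, a replicate block, no trend, limma voom on recovered reads, and leaving out each library.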

Additional observations from a re-analysis of the deposited data

How the results depend on the processing

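On PA14 the number of genes called, 135, rested on the settings and the number of pathway genes called, 1, with it. It was 79 with no filter, 71 under median-of-ratios scaling, 77 under quantile normalization, 327 in 1 fit of all 9 libraries, 80 without trend and 57 by limma voom, and 9 to 112 with a library left out. Pathway genes called were 2 with a pseudocount of 0.1 FPKM, a filter at 5 FPKM and limma voom, and 0 under median-of-ratios scaling, quantile normalization, no trend and each library left out, where *vhp-1* lost its call. With a replicate block 3 genes, 0 pathway genes and 0 of the 9 intestinal effectors were called. Replicate numbers did not pair the libraries (correlations of same-numbered deviations -0.55 to -0.19 on PA14 and 0.07 to 0.09 in *egl-44*), so a call lost there is not read as a weaker difference. In *egl-44* the replicate block gave 8753 genes and 2 pathway genes, *sek-1* losing its call (adjusted p = 0.0685).

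In *egl-44* worms 8957 genes were called, 6430 to 9067 with a library left out. Pathway genes called were 3, 5 under quantile normalization, and 1 to 4 with a library left out. *atf-7*, at -0.11, ran from -0.18 to 0.0012 with a library left out, the positive value being without WT OP50 replicate 3.

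Scaling moved the balance of directions. At the looser limit on PA14, 1102 genes were higher and 281 lower, 653 and 603 under median-of-ratios scaling, and 532 and 658 under quantile normalization. In *egl-44*, 4079 were called higher and 4878 lower, and 5377 and 4107 under quantile normalization, which moved the median of all genes to 0.29. The values of the 6 genes rest on at least 232 reads each.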
